A study of Mus musculus with 6 samples.

Results

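The genes described here are 53 genes of the mitotic spindle, the kinetochore and chromosome segregation, out of 53465 genes in each count table. They were taken from a list of symbols grouped by function, drawn up with earlier results of these data known, and all 53 were found under their symbols in the annotation of GRCm38. RNA was sequenced from 6 cultures of 1 mouse embryonic stem cell line, Royan B20, which had been passaged 7 times on 0.1% gelatin in R2i medium with the cytokine LIF. Every culture therefore received 1 µM PD0329501, as the labels spell it, and 10 µM SB431542, which blocks the receptors for TGF-beta, activin and nodal. R2i is known as a medium that pairs a MEK inhibitor with SB431542. The 3 control libraries had nothing else, and the 3 BMP-inhibited libraries also had 250 nM noggin, a secreted protein that binds BMPs, and 5 µM dorsomorphin, a small molecule that inhibits BMP type I receptors. Each group's libraries are biological replicates, per the labels, of 1 cell line, so the spread between them is that of cultures and not of genotypes. The labels give neither the length of this treatment nor a readout of BMP signalling, and the name of the group is that of its label. Noggin and dorsomorphin were added together, so their effects cannot be told apart. Any effect of dorsomorphin outside BMP receptors cannot be told apart from these either. The comparison asks how transcript levels of mitotic genes differ when both are present.

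In mitosis the kinases CDK1, PLK1, Aurora A and Aurora B drive chromosome condensation and the building of a microtubule spindle. Kinetochores, protein assemblies on the centromeres, hold the microtubules, and the spindle checkpoint keeps the anaphase-promoting complex (APC/C, a ubiquitin ligase) inactive until every kinetochore is attached. CDC20 and the E2 enzymes UBE2C and UBE2S then let the APC/C destroy securin and cyclin B, separase cuts cohesin, and cytokinesis divides the cell. Most of these genes are transcribed in a wave in the G2 phase and mitosis, under the DREAM and MuvB complexes, B-MYB and FOXM1. Mouse embryonic stem cells divide fast, with a short G1 phase, and a bulk culture of them holds many cells in every phase of the cycle. In such bulk libraries fewer cells in mitosis and less RNA per mitotic cell cannot be told apart.

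Libraries held 31474666 to 35322844 gene counts. The 8 stem cell markers checked (Pou5f1, Sox2, Nanog, Esrrb, Zfp42, Tdgf1, Dppa5a and Sall4) summed to 4526 to 4700.1 CPM (counts per 1000000 gene counts, scaled between libraries by the TMM method) in controls and to 4168 to 4386 CPM in BMP-inhibited libraries. That sum joins opposite changes, since Sox2, Nanog, Esrrb and Tdgf1 fell (log2 fold changes -0.25, -0.47, -0.32 and -0.26), Dppa5a rose (0.83) and the other 3 did not pass. Markers of other cell types moved with the treatment too, where 32.5% of all genes tested were higher and 31.7% lower at an adjusted p under 0.05. The 9 trophectoderm markers summed to 173 to 177 CPM in controls and 308 to 389 CPM with the inhibitors, with 5 of the 7 that could be tested higher and Cdx2 and Elf5 too low to be tested. The 7 markers of the 2-cell-like state, a rare state of such cultures marked by Zscan4 genes, summed to 0.0276 to 0.176 CPM and 20.7 to 31.9 CPM, and all 7 rose. The 6 primitive endoderm markers summed to 30.5 to 32.5 and 19.9 to 23.3 CPM, with 2 higher and 2 lower. The 8 fibroblast markers, which would show feeder cells, summed to 5.76 to 7.15 and 9.59 to 9.70 CPM, with 2 of 4 tested higher and Col1a2, Col3a1, Dcn and Lum too low to be tested. Mitochondrially encoded genes took 0.929% to 0.999% of gene counts in controls and 1.53% to 1.67% with the inhibitors. No marker of these lists was at 0 in all 6 libraries. The part of these differences in the results on mitotic genes was not tested.

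All mitotic genes were expressed in every library, and their changes were small and mostly downward. All 53 passed the filter on low counts, and 35 passed edgeR's quasi-likelihood test at an adjusted p of 0.05, 26 of them lower and 9 higher with BMP inhibitors. Across all 15951 genes tested the share past the test was 64.2%, with 31.7% lower and 32.5% higher, so the share of mitotic genes that passed (66.0%) was near the background, while 49.1% of them were lower and 17.0% higher. The median log2 fold change of the 53 genes was -0.08, against -0.0031 over all genes tested. No member changed 2-fold, which 15.5% of all genes tested did, and the median size of the called changes was 0.26 on the log2 scale against 0.54 for all called genes. Called or not, the median size was 0.17 for members and 0.37 for all genes tested, whose median standard error was larger. Log2 fold changes ran from -0.91 for Cenpk to 0.36 for Pttg1. Together the members took 1.14%, 1.15% and 1.14% of gene counts in the control libraries and 1.02%, 1.02% and 0.989% in the BMP-inhibited ones. The groups did not overlap for 38 members (71.7%), where the background was 68.6%. With library totals in place of TMM factors, which lowers the median of all genes by 0.06, 32 members were lower and 4 higher. The number of higher members was also 5 without BMP-inhibited library 1, 5 without control library 2 and 5 without control library 3, while 23 to 27 members were lower whichever library was left out. Leaving out 1 library, 56.7% to 65.2% of all genes tested passed. Calls of 27 members, 23 lower and 4 higher, held under all 14 alternatives tried, and the other 8 are named with their genes. The standard error of a member's log2 fold change had a median of 0.045, against 0.086 for all genes tested.

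**Figure D1:**
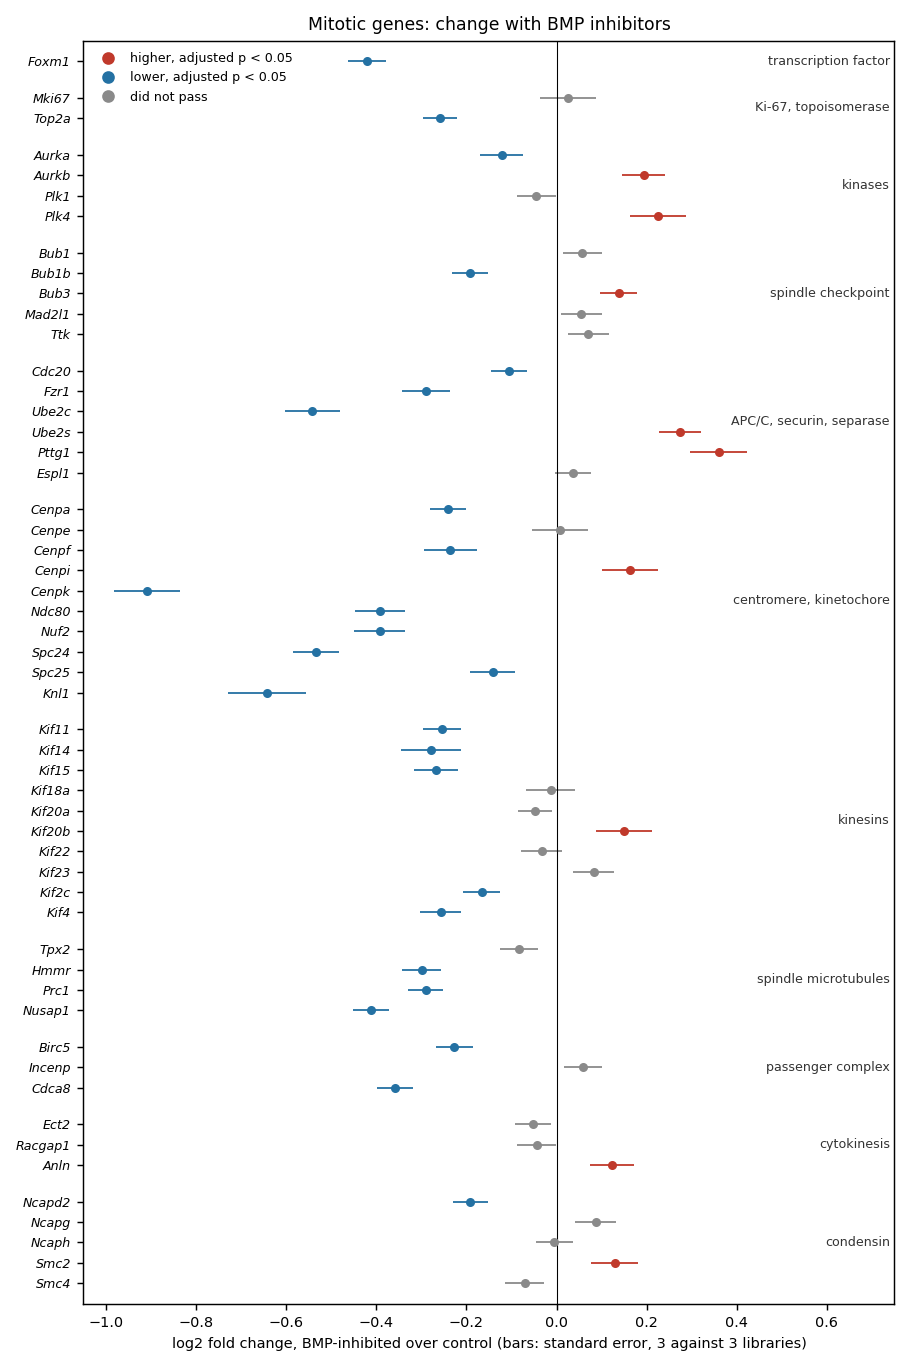
Log2 fold change of BMP-inhibited over control for each of the 53 mitotic genes (x axis), grouped by role, with bars for the standard error from 3 against 3 libraries; blue marks genes lower and red genes higher at an adjusted p under 0.05, and grey genes that did not pass. The 26 blue points reach -0.91 for Cenpk, and the 9 red points reach 0.36 for Pttg1.

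**Figure D2:**
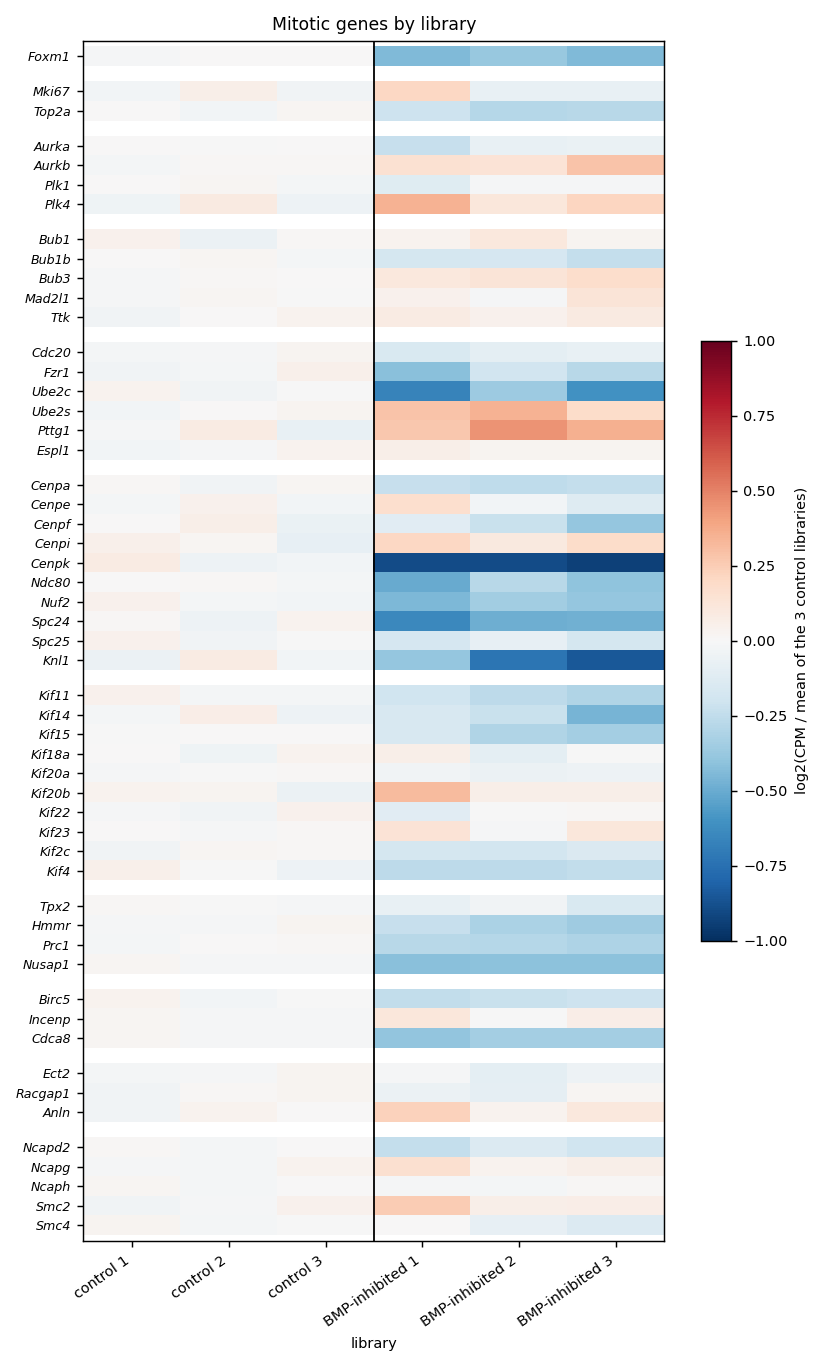
Level of each mitotic gene in each of the 6 libraries as log2 of its CPM over the mean of the 3 control libraries (colour scale from -1 to 1), genes grouped by role as in the plot of fold changes. Control libraries are close to each other, and the kinetochore rows from Cenpk to Knl1 are blue in all 3 BMP-inhibited libraries.

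Promoters of these genes are known for a pair of elements, the CHR (cell cycle genes homology region), which MuvB binds, and the CCAAT box, which NF-Y binds. RefSeq windows on GRCm38.p6, from 250 bases before to 50 after the transcription start, were at hand for 46 of the 53 members. For each gene the start nearest its annotated 5′ end was taken. For Kif2c, Cdca8 and Kif14, which fell and held CHR letters, that start lay 3867, 2394 and 1505 bases away. The letters TTTGAA or TTCGAA of the CHR, on either strand, occurred in 34 of the 46 windows (73.9%), against 13.7% of the windows of 11476 tested genes and 19.2% of all 32851 windows. CCAAT, on either strand, occurred in 31 of 46 (67.4%), against 39.3% and 37.4%. Of the 24 windows of members that fell, 19 held the CHR letters and 15 held both elements. Of the 8 windows of members that rose, 5 held the CHR letters and 2 both, and of the 14 windows of members that did not pass, 10 and 10 did. Windows of all tested genes that fell, rose or did not pass held the CHR letters in 14.7%, 12.9% and 13.5%. CHR letters were thus present in most windows of all 3 classes of mitotic genes, and in few windows of each class of all genes. The 250 bases before the start are printed for 3 members that fell and held both elements there, and for 2 that rose, in each case those with the smallest p among windows nearly free of annotated exons. The choice goes by p and is not typical of members that rose, since 2 of their 8 windows held neither element. Plk4 is one of these, and Cenpi has CCAAT letters 7 bases after the start, outside the printed stretch. They run 5′ to 3′ on the gene's strand, and capitals mark CHR and CCAAT letters in either orientation. Top2a lies on the minus strand (chr11:99024190-99024439), and the others on the plus strand, Kif11 at chr19:37376132-37376381, Bub1b at chr2:118597961-118598210, Plk4 at chr3:40799701-40799950 and Cenpi at chrX:134307834-134308083.
Top2a: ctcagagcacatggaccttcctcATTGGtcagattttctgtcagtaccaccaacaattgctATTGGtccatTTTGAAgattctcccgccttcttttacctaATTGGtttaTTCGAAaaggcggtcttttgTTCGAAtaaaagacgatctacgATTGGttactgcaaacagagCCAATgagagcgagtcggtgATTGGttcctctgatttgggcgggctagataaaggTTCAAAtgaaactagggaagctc
Kif11: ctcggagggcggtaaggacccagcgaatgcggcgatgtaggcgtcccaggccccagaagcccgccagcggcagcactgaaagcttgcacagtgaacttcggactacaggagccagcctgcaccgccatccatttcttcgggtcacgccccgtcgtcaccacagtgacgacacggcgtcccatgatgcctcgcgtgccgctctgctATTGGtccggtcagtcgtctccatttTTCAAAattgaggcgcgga
Bub1b: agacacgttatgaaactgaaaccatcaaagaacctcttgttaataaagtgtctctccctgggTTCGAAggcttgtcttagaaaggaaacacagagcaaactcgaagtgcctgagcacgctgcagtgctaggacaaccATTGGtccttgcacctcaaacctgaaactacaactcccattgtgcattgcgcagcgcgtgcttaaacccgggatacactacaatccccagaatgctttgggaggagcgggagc
Plk4: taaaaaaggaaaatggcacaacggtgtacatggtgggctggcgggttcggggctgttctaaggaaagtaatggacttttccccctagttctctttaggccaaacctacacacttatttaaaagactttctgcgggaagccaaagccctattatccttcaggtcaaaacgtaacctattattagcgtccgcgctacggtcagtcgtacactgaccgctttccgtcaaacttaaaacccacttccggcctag
Cenpi: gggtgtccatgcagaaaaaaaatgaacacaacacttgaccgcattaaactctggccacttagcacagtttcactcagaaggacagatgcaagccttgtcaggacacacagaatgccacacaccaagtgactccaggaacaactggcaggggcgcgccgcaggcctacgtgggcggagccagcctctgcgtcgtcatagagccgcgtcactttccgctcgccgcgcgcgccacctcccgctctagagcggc
The Top2a stretch held 4 CHR and 6 CCAAT matches, and those of Kif11 and Bub1b held 1 of each. In Kif11 the CHR letters began 19 bases before the start and the CCAAT letters 45 before it. In Bub1b the order was reversed, with CHR letters 188 and CCAAT letters 113 bases before the start. Further CHR letters of Bub1b, 40 bases after the start, lay outside the printed stretch. The printed stretches of Plk4 and Cenpi held neither. In these stretches no match shares a letter with another. A match of letters is a description and does not show binding.

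Foxm1, which encodes a transcription factor that activates G2 and mitotic genes, fell in every BMP-inhibited library. Its levels were 142, 144 and 144 CPM in the control libraries and 106, 109.8 and 105 CPM in the BMP-inhibited ones (-0.42 on the log2 scale, SE 0.04, adjusted p = 3.67e-07). The groups were far apart relative to the spread within them. The gene lies on chromosome 6, 128362967 to 128376146, and a small part of its exons overlaps 2 other genes on the same strand.

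Of the proliferation marker Mki67 and the topoisomerase gene Top2a, the second passed and the first did not. Mki67, which encodes the Ki-67 antigen that coats mitotic chromosomes, was at 261, 278 and 261 CPM in the control libraries and 307, 254 and 253 CPM in the BMP-inhibited ones, and did not pass (0.03 on the log2 scale, SE 0.06, adjusted p = 0.742). BMP-inhibited library 1 stood above all others, and without it the log2 fold change was -0.07 (adjusted p = 0.135). Top2a (chromosome 11, 98992943 to 99024189), the topoisomerase that disentangles sister chromatids and the most abundant member by CPM, fell. It was at 1061, 1038 and 1074 CPM in the control libraries and 914, 866 and 871 CPM in the BMP-inhibited ones (-0.26 on the log2 scale, SE 0.04, adjusted p = 2.28e-05).

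Among the kinases, Aurora B and PLK4 transcripts rose and Aurora A transcripts fell, all by little. Aurkb, the kinase of the chromosomal passenger complex that corrects faulty attachments, was at 113, 115 and 115 CPM in the control libraries and 127, 126 and 139 CPM in the BMP-inhibited ones (0.19 on the log2 scale, SE 0.05, adjusted p = 0.00205). Plk4, the kinase that starts centriole duplication, was at 61.2, 67.3 and 60.8 CPM in the control libraries and 80.1, 68.2 and 73.1 CPM in the BMP-inhibited ones (0.23 on the log2 scale, SE 0.06, adjusted p = 0.00535). All 3 BMP-inhibited libraries lay above the controls for both genes, Plk4 in library 2 by less than the spread among controls. Aurka, the kinase of spindle poles, was at 214, 213 and 215 CPM in the control libraries and 182, 203 and 204 CPM in the BMP-inhibited ones (-0.12 on the log2 scale, SE 0.05, adjusted p = 0.0337), and library 1 was the lowest. The Aurka call was lost without BMP-inhibited library 1 (log2 fold change -0.07, adjusted p = 0.117) and without control library 1, 2 or 3 (adjusted p = 0.0876, 0.0583 and 0.0766). Plk1, the kinase of mitotic entry and kinetochores, was at 240.2, 243 and 237 CPM in the control libraries and 221, 238 and 239 CPM in the BMP-inhibited ones and did not pass (-0.05 on the log2 scale, SE 0.04, adjusted p = 0.375). It passed as lower with library totals alone, at -0.10 (adjusted p = 0.0481).

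Of the 5 spindle checkpoint genes 1 fell, 1 rose and 3 did not pass, a share past the test of 40.0% against 64.2% of all genes. Bub1b, which encodes the checkpoint protein BUBR1, fell from 303, 306 and 298 CPM in controls to 268, 269.9 and 257 CPM (-0.19 on the log2 scale, SE 0.04, adjusted p = 0.000582). Bub3, its partner that docks BUB proteins on kinetochores, rose from 213, 216 and 216 to 231, 235 and 243 CPM (0.14 on the log2 scale, SE 0.04, adjusted p = 0.00716). Neither gene's groups overlapped, and the Bub3 call was lost with library totals alone (log2 fold change 0.08, adjusted p = 0.0911). The kinase gene Ttk, which encodes MPS1, was at 77.3, 79.5 and 81.1 CPM in the control libraries and 83.8, 81.8 and 84.2 CPM in the BMP-inhibited ones. Its groups did not overlap either, but the change did not pass (0.07 on the log2 scale, SE 0.05, adjusted p = 0.192). Bub1, the kinase that marks centromeric chromatin, and Mad2l1, which encodes the APC/C inhibitor MAD2, had log2 fold changes of 0.06 and 0.06 (adjusted p = 0.266 and 0.301).

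Of 6 genes that work with the APC/C, or on the substrates that gate anaphase, 3 fell and 2 rose. The share past the test was 83.3%, against 64.2% of all genes tested. Over all genes tested 31.7% fell and 32.5% rose, so the share of these 6 that rose (33.3%) was near the background. Ube2c (chromosome 2, 164769898 to 164778822), the E2 enzyme that starts ubiquitin chains on APC/C substrates, was at 293, 280.1 and 286 CPM in the control libraries and 180.0, 222 and 188 CPM in the BMP-inhibited ones (-0.54 on the log2 scale, SE 0.06, adjusted p = 1.51e-06). Ube2s, the E2 that extends those chains, was at 225, 230.4 and 234 CPM in the control libraries and 280.5, 293 and 260.4 CPM in the BMP-inhibited ones (0.27 on the log2 scale, SE 0.05, adjusted p = 9.07e-05). The E2 genes thus moved in opposite directions in all 3 BMP-inhibited libraries. Pttg1 (chromosome 11, 43420250 to 43426251), which encodes securin, the inhibitor of separase, was at 41.8, 44.4 and 40.0 CPM in the control libraries and 50.7, 57.4 and 54.0 CPM in the BMP-inhibited ones (0.36 on the log2 scale, SE 0.06, adjusted p = 0.000111), the largest rise among the members. Espl1, which encodes separase itself, had a log2 fold change of 0.04 (adjusted p = 0.436). The APC/C activators both fell, Fzr1, which encodes CDH1 and acts in late mitosis and G1, from 180.1, 182 and 191 to 138, 162 and 152 CPM (-0.29 on the log2 scale, SE 0.05, adjusted p = 0.000189). Cdc20, the activator of metaphase, was at 408 ± 7.48 and 379 ± 10.8 CPM (SD, n = 3; -0.11 on the log2 scale, SE 0.04, adjusted p = 0.0284). The Cdc20 call was lost without BMP-inhibited library 1 (adjusted p = 0.0619) and without control library 1 or 3 (0.0576 and 0.0952). Exons of Ube2c overlap the antisense gene Tnnc2 over 22.8% of their length, and Cdc20 has a processed pseudogene near-identical over 83.5% of its longest transcript. Of all 53 members 14 overlap an antisense gene and 4 have a near-identical copy, and whether the counting used strand is not given in the sources used here. Those with an antisense partner are Plk1, Cdc20, Fzr1, Ube2c, Ube2s, Cenpk, Kif18a, Kif20a, Kif22, Kif4, Prc1, Nusap1, Cdca8 and Ncapg, and those with a copy are Cdc20, Kif11, Kif2c and Plk1, so their levels are uncertain to that extent.

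Centromere and kinetochore genes held the 2 largest falls, and 8 of 10 (80.0%) were lower and 1 higher, where 31.7% of all genes tested were lower. Cenpk (chromosome 13, 104228611 to 104252392), a subunit of the constitutive centromere network, was at 29.4, 26.9 and 27.3 CPM in the control libraries and 15.0, 15.0 and 14.6 CPM in the BMP-inhibited ones (-0.91 on the log2 scale, SE 0.07, adjusted p = 3.29e-08). This is 1.88-fold lower, the largest change among the members. Knl1 (chromosome 2, 119047119 to 119105501), the scaffold that recruits BUB proteins, was at 81.3, 89.6 and 83.0 CPM in the control libraries and 64.6, 51.1 and 47.1 CPM in the BMP-inhibited ones (-0.64 on the log2 scale, SE 0.09, adjusted p = 8.96e-06). All 3 treated libraries lay below the controls, library 1 nearest to them, and without it the log2 fold change was -0.78. Every subunit of the NDC80 complex, which grips the microtubule end, fell. Spc24 (chromosome 9, 21755442 to 21760303) was at 124, 119 and 126 CPM in the control libraries and 79.0, 88.1 and 88.5 CPM in the BMP-inhibited ones (-0.53 on the log2 scale, SE 0.05, adjusted p = 2.56e-07). Ndc80 itself was at 102 ± 1.17 and 77.5 ± 6.19 CPM (SD, n = 3), Nuf2 at 51.0 ± 1.37 and 38.8 ± 1.40 CPM and Spc25 at 76.0 ± 1.98 and 68.9 ± 2.40 CPM, with log2 fold changes of -0.39, -0.39 and -0.14. The Spc25 call was the weakest of the 4 (adjusted p = 0.0204) and was lost without BMP-inhibited library 3 (0.0674) and without control library 1 or 3 (0.0964 and 0.0504). Cenpa, the histone H3 variant that defines the centromere, and Cenpf, a large kinetochore protein of G2 and mitosis, fell by 0.24 and 0.24 on the log2 scale. Cenpe, a kinesin that moves chromosomes to the metaphase plate, went against most of its group, at 145, 151 and 144 CPM in the control libraries and 165, 144 and 134 CPM in the BMP-inhibited ones. The groups overlapped and it did not pass (0.01 on the log2 scale, SE 0.06, adjusted p = 0.922). Cenpi, a partner of CENPK in the centromere network, rose slightly, from 35.5, 34.7 and 32.3 to 39.3, 36.6 and 38.8 CPM (0.16 on the log2 scale, SE 0.06, adjusted p = 0.0312). That call was lost with library totals alone (adjusted p = 0.159), with no count filter (0.0607), without BMP-inhibited library 1 or 3 (0.0607 and 0.0716) and without control library 2 or 3 (0.0818 and 0.184).

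Of the 10 kinesins, motor proteins that slide or dismantle microtubules, 5 fell, 1 rose and 4 did not pass. The share that passed, 60.0%, was close to the 64.2% of all genes tested. Kif11, which encodes the motor EG5 that pushes spindle poles apart, was at 331, 317 and 317 CPM in the control libraries and 280.1, 268 and 261 CPM in the BMP-inhibited ones (-0.25 on the log2 scale, SE 0.04, adjusted p = 7.15e-05). Kif15, which backs up EG5, was at 148, 149 and 149 CPM in the control libraries and 133, 121 and 117 CPM in the BMP-inhibited ones (-0.27 on the log2 scale, SE 0.05, adjusted p = 0.000197). Kif4, a chromosome-bound motor that also shapes the central spindle, was at 112, 108 and 105 CPM in the control libraries and 90.6, 90.3 and 91.3 CPM in the BMP-inhibited ones (-0.26 on the log2 scale, SE 0.04, adjusted p = 0.000119). For these 3 genes every treated library lay below every control. Kif14, a motor of cytokinesis, and Kif2c, which encodes the microtubule depolymerase MCAK, also fell, with log2 fold changes of -0.28 and -0.17. Kif20b, a motor of late cytokinesis, was at 147, 146 and 138 CPM in the control libraries and 178, 149.7 and 149 CPM in the BMP-inhibited ones (0.15 on the log2 scale, SE 0.06, adjusted p = 0.043), library 1 being far above the others. Without that library its log2 fold change was 0.06 (adjusted p = 0.213). The call was also lost with library totals, upper-quartile factors and the stricter count filter (0.208, 0.0596 and 0.0596) and without control library 1, 2 or 3 (0.0764, 0.0984 and 0.212). Kif23, the motor of the centralspindlin complex, was at 166, 164 and 166 CPM in the control libraries and 182, 164 and 179 CPM in the BMP-inhibited ones and did not pass (0.08 on the log2 scale, SE 0.05, adjusted p = 0.132), but passed as higher without BMP-inhibited library 2 (adjusted p = 0.00771). Kif18a, Kif20a and Kif22, which act in chromosome alignment, cytokinesis and chromosome arm movement, had log2 fold changes of -0.01, -0.05 and -0.03 (adjusted p = 0.848, 0.278 and 0.548). The groups did not overlap for Kif20a, which passed as lower with library totals alone, at -0.11 (adjusted p = 0.0175). Exons of Kif20a and Kif4 overlap antisense genes over 29.3% and 15.1% of their length.

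Of 4 genes whose proteins bundle or nucleate spindle microtubules, 3 had lower transcript levels (75.0%, against 31.7% of all genes tested). Nusap1, a microtubule bundler near chromosomes, fell from 214, 210.4 and 210.3 CPM to 159, 159 and 159 CPM (-0.41 on the log2 scale, SE 0.04, adjusted p = 2.39e-07). The groups were far apart and each was tight. Hmmr, a spindle pole protein, fell from 237, 237 and 243 to 203, 192 and 187 CPM (-0.30 on the log2 scale, SE 0.04, adjusted p = 1.9e-05), and Prc1, which cross-links the central spindle, from 294, 299.9 and 301 to 246, 245 and 241 CPM (-0.29 on the log2 scale, SE 0.04, adjusted p = 8.07e-06). Tpx2, the activator of Aurora A, was at 365, 361 and 359.7 CPM in the control libraries and 344, 354 and 326 CPM in the BMP-inhibited ones and did not pass (-0.08 on the log2 scale, SE 0.04, adjusted p = 0.0886). Its groups did not overlap, and it passed as lower with library totals alone and without BMP-inhibited library 2 (adjusted p = 0.00798 and 0.0236).

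In the chromosomal passenger complex, whose kinase is Aurora B, 2 of the 3 other subunit genes fell (66.7%, against 31.7% of all genes tested). Cdca8, which encodes borealin, was at 217, 213 and 213 CPM in the control libraries and 163, 169 and 169.5 CPM in the BMP-inhibited ones (-0.36 on the log2 scale, SE 0.04, adjusted p = 1.44e-06). Birc5, which encodes survivin, was at 183, 175 and 178 CPM in the control libraries and 150.4, 153 and 154 CPM in the BMP-inhibited ones (-0.23 on the log2 scale, SE 0.04, adjusted p = 0.000177). Both fell, in contrast to Aurkb. Incenp, the scaffold, was at 225, 219 and 219.6 CPM in the control libraries and 239, 221 and 231 CPM in the BMP-inhibited ones and did not pass (0.06 on the log2 scale, SE 0.04, adjusted p = 0.238).

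Of 3 cytokinesis genes none fell, 1 rose and its groups overlapped. Over all genes tested 31.7% fell and 32.5% rose. Ect2, the exchange factor that activates RhoA at the cleavage furrow, was at 241, 242 and 248 CPM in the control libraries and 241, 228 and 236 CPM in the BMP-inhibited ones (-0.05 on the log2 scale, SE 0.04, adjusted p = 0.275). Racgap1, the centralspindlin subunit that recruits ECT2, was at 224, 231 and 233 CPM in the control libraries and 219.8, 215 and 232 CPM in the BMP-inhibited ones (-0.04 on the log2 scale, SE 0.04, adjusted p = 0.382). Neither passed, except as lower with library totals alone (adjusted p = 0.02 and 0.0372). Anln, which encodes the ring scaffold anillin, was at 231, 243 and 238 CPM in the control libraries and 278, 243 and 255 CPM in the BMP-inhibited ones and passed as higher (0.12 on the log2 scale, SE 0.05, adjusted p = 0.0399). Its groups overlapped, since BMP-inhibited library 2 was no higher than the highest control. The Anln call was lost without any 1 of the control libraries (adjusted p = 0.176, 0.0776 and 0.117 for libraries 1, 2 and 3), without treated library 1 or 3 (0.141 and 0.0507), and with library totals, upper-quartile factors and the stricter filter (0.257, 0.0652 and 0.0525).

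Condensin I, the ring complex that compacts chromosomes, had 1 subunit lower, 1 higher and 3 that did not pass. The share past the test was 40.0%, against 64.2% of all genes tested. Ncapd2 was at 621, 609.6 and 620.2 CPM in the control libraries and 523, 560.2 and 538 CPM in the BMP-inhibited ones (-0.19 on the log2 scale, SE 0.04, adjusted p = 0.000516). The ATPase subunit gene Smc2 was at 189, 191 and 199 CPM in the control libraries and 230.3, 201 and 202 CPM in the BMP-inhibited ones (0.13 on the log2 scale, SE 0.05, adjusted p = 0.0421), and treated library 1 was well above the rest. Without that library its log2 fold change was 0.06 (adjusted p = 0.17). The Smc2 call was further lost with DESeq2 (0.0508), library totals (0.242), upper-quartile factors (0.0686), the stricter filter (0.0559) and without control library 1, 2 or 3 (0.164, 0.152 and 0.0702). Ncapg was at 137, 136 and 142 CPM in the control libraries and 155, 142 and 144 CPM in the BMP-inhibited ones and did not pass (0.09 on the log2 scale, SE 0.05, adjusted p = 0.104), but passed without BMP-inhibited library 2 (0.0295). Ncaph and Smc4 had log2 fold changes of -0.0049 and -0.07 (adjusted p = 0.923 and 0.166), and Smc4 passed as lower with library totals alone (0.0148) and without BMP-inhibited library 1 (0.0208).

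Ratios of raw counts between partner genes do not depend on the scaling between libraries, and 6 pairs were chosen after their values had been seen. The ratio of Ube2s to Ube2c counts was 0.769, 0.822 and 0.818 in controls and 1.56, 1.32 and 1.39 in BMP-inhibited libraries, 1.77-fold higher. In controls Ube2c had more counts than Ube2s, and in every treated library fewer. The ratio of Aurkb to Cdca8, which act in the same complex, was 0.519, 0.540 and 0.539 in controls and 0.779, 0.743 and 0.819 with the inhibitors. For Bub3 over Bub1b it was 0.703 to 0.722 and 0.861 to 0.945, and for Pttg1 over Espl1, securin over separase, 0.133 to 0.153 and 0.167 to 0.193. For Cdc20 over Fzr1 it was 2.19 to 2.23 and 2.36 to 2.66, and for Smc2 over Ncapd2 0.304 to 0.321 and 0.358 to 0.440. In none of the 6 pairs did the groups overlap, and, since they were chosen by their values, no test is given. These ratios show unequal change and not which partner changed.

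**Figure D3:**
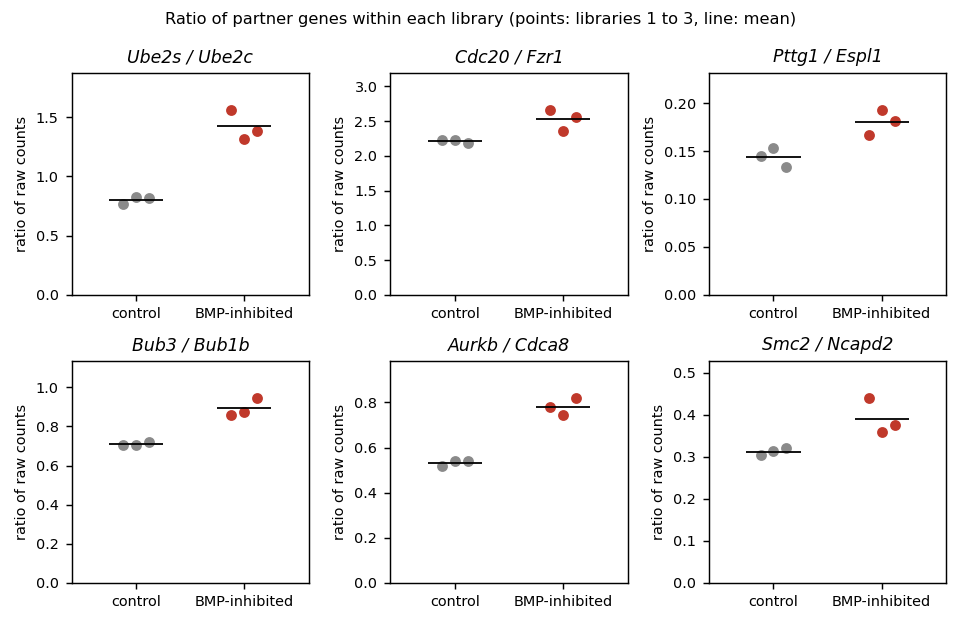
Ratio of raw counts of 2 partner genes within each library (y axis from 0), for 6 pairs; points are the 3 libraries of a group and the line is their mean. BMP-inhibited points lie above control points in all 6 panels, with the widest gap for Ube2s over Ube2c (0.769 to 0.822 against 1.32 to 1.56).

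On a scale of CPM per kilobase of annotated exon, control levels ran from 5.33 for Cenpk to 219 for Cdc20. After Cdc20 came Top2a, Ube2c and Plk1 at 117, 110.1 and 109 CPM per kilobase. The low end held Cenpk, Cenpi, Kif18a, Nuf2, Kif14, Plk4 and Knl1, all under 10 CPM per kilobase. Within the NDC80 complex, control levels on this scale were 47.9 for Spc24, 23.8 for Spc25, 15.7 for Ndc80 and 8.04 for Nuf2, so subunits of 1 complex differed in level. Exon length is that of all annotated transcripts merged, which lowers the value of genes with long rare exons.

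Spread among replicates was wider with the inhibitors. The SD of log2 CPM was larger in the BMP-inhibited group for 40 of 53 members (75.5%), as for 70.3% of all genes tested, with a median of 0.060 against 0.031 in controls. Within the treated group the libraries differed with annotated exon length. The 10 members with the longest exons, 8542 bases or more (Cenpf, Kif15, Kif14, Mki67, Kif18a, Anln, Top2a, Espl1, Cenpe and Knl1), were all highest in BMP-inhibited library 1. The 10 with the shortest exons, 4059 bases or less, were lowest in that library in 8 cases and highest in 0. Of all 15951 genes tested 5776 were lowest in it, and other genes as short were not examined as a set. Among all 2052 tested genes with exons of 8542 bases or more, 60.4% were highest in library 1, against 32.5% of all genes tested. In controls the 10 longest members were highest in library 2 in 6 cases and in library 3 in 4. The median log2 fold change was -0.12 for the 10 longest members and -0.13 for the 10 shortest. The lengths were examined after the values had been seen, and what makes library 1 differ was not tested.

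**Figure D4:**
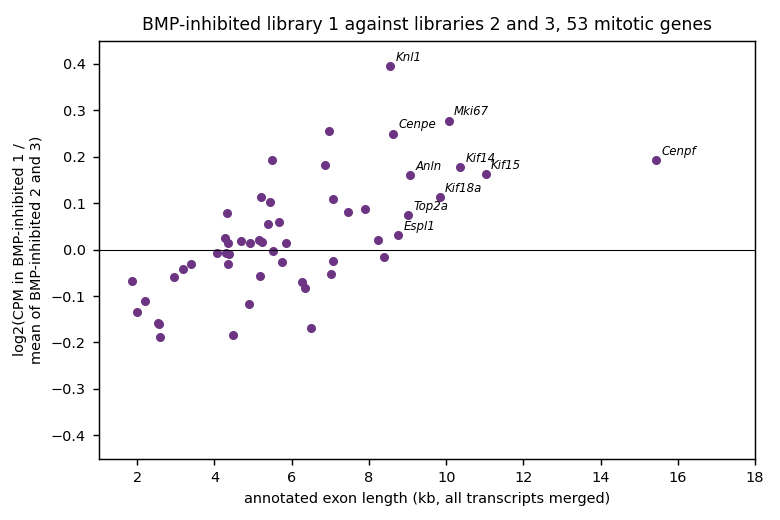
For each of the 53 mitotic genes, log2 of its CPM in BMP-inhibited library 1 over the mean of libraries 2 and 3 (y axis) against annotated exon length in kilobases (x axis); the 10 longest genes are named. All 10 lie above 0, and most of the shortest genes lie below it.

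Other genes of the division machinery, 118 in 7 lists, passed the test in 76 cases, 33 higher and 43 lower, a share of 64.4% and so close to the background. Of 15 genes of mitotic entry 8 (53.3%) were lower and 2 (13.3%) higher, against 31.7% and 32.5% of all genes tested, and 5 did not pass. Cdk1, the kinase of mitosis, had 278 ± 4.39 and 220.2 ± 6.87 CPM (SD, n = 3; -0.33 on the log2 scale, SE 0.04, adjusted p = 3.36e-06). Of its cyclin genes, Ccnb1 and Ccna2 fell from 467 ± 14.7 to 381 ± 16.5 CPM and from 325 ± 6.33 to 270.0 ± 4.74 CPM, with log2 fold changes of -0.29 and -0.27. Ccnb2, the other B-type cyclin of the list, which is named here after its values were seen, was at 211, 213 and 208 CPM in the control libraries and 202, 216 and 209.9 CPM in the BMP-inhibited ones and did not pass (-0.01 on the log2 scale, SE 0.04, adjusted p = 0.889). Bora, the activator of PLK1, and Haspin, the kinase that places the passenger complex on centromeres, fell by 0.56 and 0.50 on the log2 scale.

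Among all genes tested 31.7% were lower and 32.5% higher, and the lists are given beside those shares. Of the other kinetochore and centromere genes 16 of 34 (47.1%) were lower and 6 (17.6%) higher. Itgb3bp, which encodes CENPR, fell from 14.3, 12.1 and 12.9 to 4.20, 6.52 and 5.54 CPM (-1.27 on the log2 scale, SE 0.14, adjusted p = 8.42e-07), and Kntc1, a checkpoint protein of the outer kinetochore, from 203, 199 and 201 to 147, 141 and 125 CPM (-0.55 on the log2 scale, SE 0.05, adjusted p = 3.14e-07). Of the genes of cohesin and its regulators 7 of 13 (53.8%) were higher and 1 (7.69%) lower, with 61.5% past the test in all against 64.2% of all genes. Those that rose included Rad21, the subunit that separase cuts (log2 fold change 0.48), and the acetyltransferase gene Esco1 (0.46). The APC/C itself had 5 of 15 higher and 3 lower, with Anapc10 and Cdc27 at 0.48 and 0.41. All 3 genes of the condensin II list, which leaves out Smc2 and Smc4, passed, 2 lower and 1 higher, among them Ncapg2 at 0.57 and Ncapd3 at -0.24. Centrosome genes had 6 of 18 higher and 5 lower, with Tubg1, which encodes gamma-tubulin, at 0.79 and the augmin subunit gene Haus1 at -0.75. The remaining spindle and cytokinesis genes had 6 of 20 higher and 8 lower, with Gtse1 and Ckap2 at 0.67 and 0.63.

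Regulators of the mitotic programme moved in both directions. Of 19 genes of the DREAM, MuvB and E2F systems 8 rose and 3 fell (42.1% and 15.8%, against 32.5% and 31.7% of all genes tested). Mybl2, which encodes B-MYB, fell from 1193, 1166 and 1230.2 to 869.8, 897 and 882 CPM (-0.44 on the log2 scale, SE 0.04, adjusted p = 6.87e-08), and Rb1, the retinoblastoma gene, rose from 20.9, 22.8 and 20.4 to 53.9, 45.5 and 49.9 CPM (1.22 on the log2 scale, SE 0.07, adjusted p = 1.25e-09). All 7 CDK inhibitor genes passed, 5 higher (71.4%) and 2 lower (28.6%), where 64.2% of all genes tested passed. Cdkn1a, which encodes p21, rose from 80.9, 79.2 and 85.2 to 137, 136 and 143 CPM (0.76 on the log2 scale, SE 0.05, adjusted p = 1.36e-09), and Cdkn1c, which encodes p57, from 4.89, 4.77 and 3.38 to 36.9, 33.7 and 38.8 CPM (3.06 on the log2 scale, SE 0.11, adjusted p = 6.69e-12). Cdkn1b, which encodes p27 and is named here after its values were seen, fell from 92.6, 94.5 and 93.1 to 51.3, 59.2 and 50.7 CPM (-0.80 on the log2 scale, SE 0.06, adjusted p = 1.27e-08). Replication genes, the S phase counterpart, had 11 of 26 (42.3%) higher and 7 (26.9%) lower, with Rrm1, of ribonucleotide reductase, at 0.53 and the clamp loader gene Rfc4 at -0.63. Over all 10 lists 57 of 170 genes (33.5%) were higher and 55 (32.4%) lower, shares near those of all genes tested, and 47 and 68 with library totals alone. Ccna2, Itgb3bp, Haus1, Rb1, Cdkn1a, Cdkn1c and Rfc4 overlap antisense genes, and Ccnb1 and Tubg1 have near-identical copies, so their counts are uncertain.

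**Figure D5:**
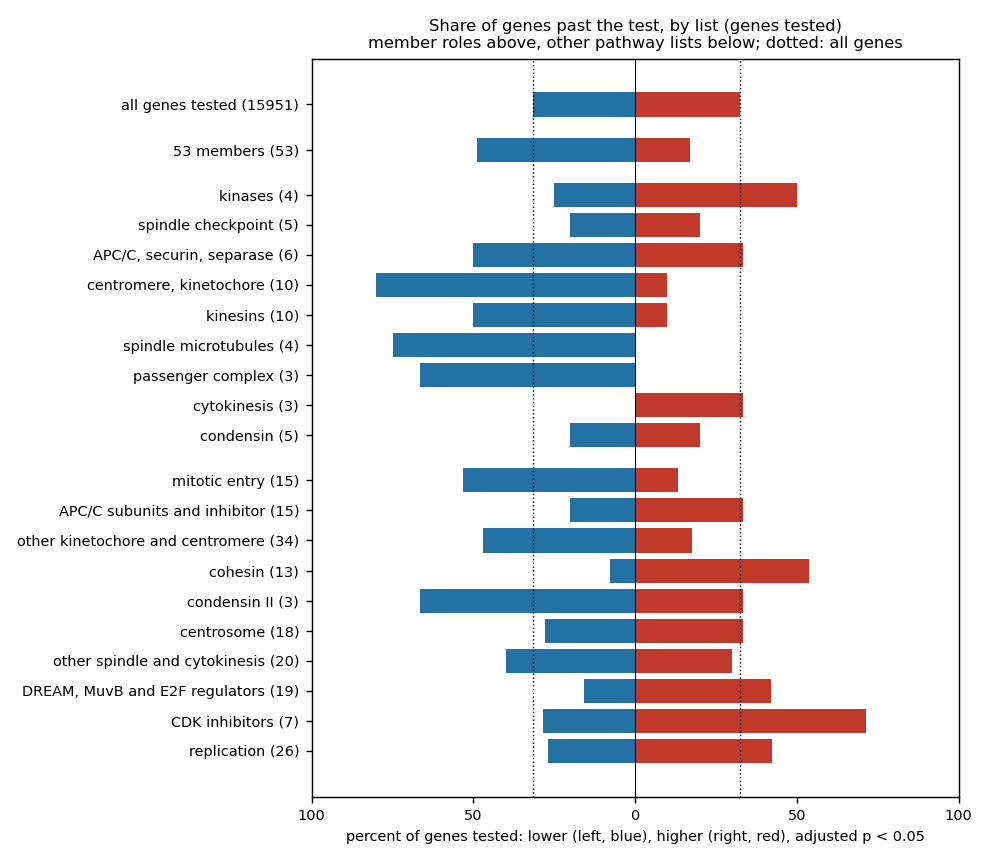
Percent of the genes tested in each list that were lower (blue, to the left) and higher (red, to the right) at an adjusted p under 0.05, with the number of genes tested in brackets; dotted lines mark all 15951 genes tested (31.7% and 32.5%). The centromere and kinetochore members reach 80.0% lower, and cohesin genes 53.8% higher.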

How the data were processed

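Poly(A) RNA of 6 cultures was sequenced on stranded libraries, per the labels' protocols. Each deposited file holds raw counts per gene of 1 library, and the build GRCm38.p6, STAR 2.6.1, HTSeq 0.9.1, cutadapt 1.4.2, DESeq2 and CASAVA 1.8.2 are listed, without roles, per the submitters' processing notes. The annotation release and the strand setting are not given in the sources used here. The 5 rows that name no gene (25.6% to 26.4% of all counts) were left out. Symbols, coordinates and exon lengths came from GENCODE M21, which matched 53360 of 53465 gene identifiers, and promoters from RefSeq on GRCm38.p6.

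Genes were filtered with filterByExpr (a minimum count of 10), scaled by TMM and tested with edgeR 4.0.16 (quasi-likelihood F test, 3 against 3 libraries by their labels), and p-values were adjusted by Benjamini-Hochberg over all 15951 genes with a threshold of 0.05. "Fell", "rose", "lower" and "higher" refer to that test. Near-identical copies are transcripts with at least 90% identity over at least 50% of the longest transcript (BLAST 2.17.0). The procedure was tested on simulated data.

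Alternatives were DESeq2 1.42.0, limma-voom 3.58.1, other scalings and count filters, a replicate block and leaving out each library. Values per library are given for the 3 members of each role with the smallest p (all in roles of 4 or fewer) and those whose sign goes against most of their role. From each other list the rule takes the 2 genes with the smallest p, and Ccnb1, Ccna2, Cdk1, Mybl2 and Cdkn1a. The members and lists were chosen with earlier results of these data known.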

Additional observations from a re-analysis of the deposited data

How the results depend on the processing

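With library totals in place of TMM factors 36 members passed, 4 higher and 32 lower, and the median log2 fold change of members was -0.142, while the other scalings, models and filters gave 32 to 35 members and medians from -0.0994 to -0.0791. Of all genes tested 64.1% passed with library totals, and 38.4% to 69.5% with those other settings, whose filters differ. Leaving out 1 library in turn gave 28 to 38 members, 5 to 11 higher and 23 to 27 lower, with medians from -0.1072 to -0.0727. The share of all genes tested that passed moved too, from 56.7% without control library 2 to 65.2% without BMP-inhibited library 2. No member that passed changed sign under any of the 14 alternatives, and 8 of the 35 lost their call under at least 1 of them, as given with each gene. All 23 named genes outside the members kept their calls under all of them. Among genes that did not pass, the sign turned with library totals for Bub1 (-0.001041), Cenpe (-0.05152), Espl1 (-0.0224), Incenp (-0.0002464), Mad2l1 (-0.004141) and Mki67 (-0.03409), and with upper-quartile factors for Cenpe (-0.008806). It also turned on leaving out 1 library, over which Cenpe ran from -0.07847 to 0.07564, Kif18a from -0.04899 to 0.03186, Kif22 from -0.05661 to 0.007866, Mki67 from -0.07096 to 0.07531, the cyclin gene Ccnb2 from -0.02627 to 0.01872 and Ncaph from -0.02273 to 0.003245. The cause was not tested. With the replicate number as a replicate block 35 members passed (9 higher, 26 lower) and 10210 of all genes. Deviations of same-numbered libraries correlated at -0.044, 0.008 and 0.029, which cannot show whether those libraries were handled together. Differences under about 0.09 (2 median standard errors of a member) lie within error, and this limit is wider for members with larger standard errors. Members that did not pass are therefore not shown to be unchanged.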

Other observations

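The E2F letters TTCCCGC or TTGGCGC, on either strand, occurred in 8 of 46 windows of members (17.4%) and in 12.4% of those of all tested genes. They occurred in 29.2% of 96 windows of the other mitotic machinery genes and in 57.1% of 21 windows of replication genes. CHR letters went the other way, at 73.9%, 42.7% and 28.6% in members, other mitotic machinery and replication genes. CCAAT was held by 67.4%, 56.3% and 76.2% of the same windows.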
